A study of Macaca mulatta with 45 samples.

Results

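Prefrontal cortex of rhesus macaques given fractionated whole-brain irradiation (fWBI, 5 animals) was compared with prefrontal cortex of macaques given total body irradiation (TBI, 5 animals). The comparison rests on 10 of the 45 total RNA-seq libraries of the study, 1 library per animal, all from Brodmann area 46. It was made across all genes with enough counts to be tested. In the fWBI group the whole brain was given 8 fractions of 5 Gy, 40 Gy in all, and necropsy followed after 12 months. In the TBI group the whole body was exposed once, 6 to 9 years ahead of necropsy. The TBI dose was 6.75 Gy in TBI replicates 1 and 2, 7.2 Gy in replicates 3 and 4, and 8.05 Gy in replicate 5. A further 5 animals, called controls in the study, were exposed at the thorax alone, to 10 Gy, and their labels put the brain dose at 0.1 Gy, so no group was wholly unirradiated. The fWBI and TBI groups differed in dose, fractionation, exposed field and time since exposure at once, and these cannot be told apart here. Age and sex are not part of the sources used here.

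Oligodendrocytes arise in the adult brain from precursor cells that keep dividing, and irradiation of the brain is known for depleting such precursors and for activating microglia, the resident macrophages. Resting microglia carry the purine receptor P2RY12, whereas activated microglia and macrophages from the blood or the vessel wall show peptides on MHC class II molecules, loaded with the help of the invariant chain CD74. Fibroblasts of the vessel wall and meninges make fibrillar collagens, which are scarce in the tissue between neurons.

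Total counts were 9270326 to 10795679 per library in fWBI, 7760715 to 12075205 in TBI and 6625435 to 10685965 in control. The libraries had the markers of grey matter: the 14 pan-neuronal genes summed to 14100 to 14400 CPM (counts scaled to the TMM-adjusted library total) in fWBI, 13500 to 15100 CPM in TBI and 14100 to 16200 CPM in control. The myelin list is high in white matter. It summed to 693 to 1550 CPM in fWBI, 734 to 1690 CPM in TBI and 550 to 2890 CPM in control, so groups overlapped. The sum in white matter was 21200 to 38400 CPM in fWBI and 38200 to 53400 CPM in TBI. Whether the list reads the dissection alone was not tested. In fWBI replicate 4 the 10 most abundant genes took 14.0% of the counts, against 6.36 to 9.0% in the other prefrontal libraries. Control replicate 1 lay at the far end of the first principal component. TBI replicate 4 stood apart in haemoglobin RNA: HBA had 96.8 CPM there and at most 3.72 CPM in the other 14 libraries.

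In all genes called between fWBI and TBI, control cortex was closer to TBI cortex. Of 15531 genes tested, 45 passed an adjusted p of 0.05 (edgeR's quasi-likelihood test, Benjamini-Hochberg method over all genes), which is 0.29% of the genes tested. The 33 rises (0.212%) included genes of macrophages, antigen presentation and fibrous matrix, and the 12 falls (0.0773%) included genes of oligodendrocyte precursors and resting microglia. Without fWBI replicate 4, TBI replicate 4 and control replicate 1 together, 38 genes passed, 27 higher and 11 lower, of which 35 were among the 45. The count depended on the test: DESeq2 called 93 genes and limma-voom 76, each among them the 45, while 5 passed when a log2 difference beyond 1 was required, and 27 passed without fWBI replicate 2. All 45 had fWBI and TBI values that did not overlap, as did 1.33% of all genes tested. The control mean lay nearer to the TBI mean than to the fWBI mean in 45 of the 45, against 54.3% of all genes tested. A symbol was paired with 37 of the 45 gene IDs. All values below that pass or miss the threshold are from this test, and n is 5 animals per group. Fold changes are log2 of fWBI over TBI with their standard error. That error was worked back from the test, as the size of the fold change over the square root of its F statistic. It is unreliable for very small changes. The gene lists were chosen with earlier results of these data known, so their counts and medians below are descriptive and give no independent support. List members named below that did not pass were mostly picked as examples after their values were seen. In bulk tissue, fewer cells of a type and less RNA per cell cannot be told apart.

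**Figure D1:**
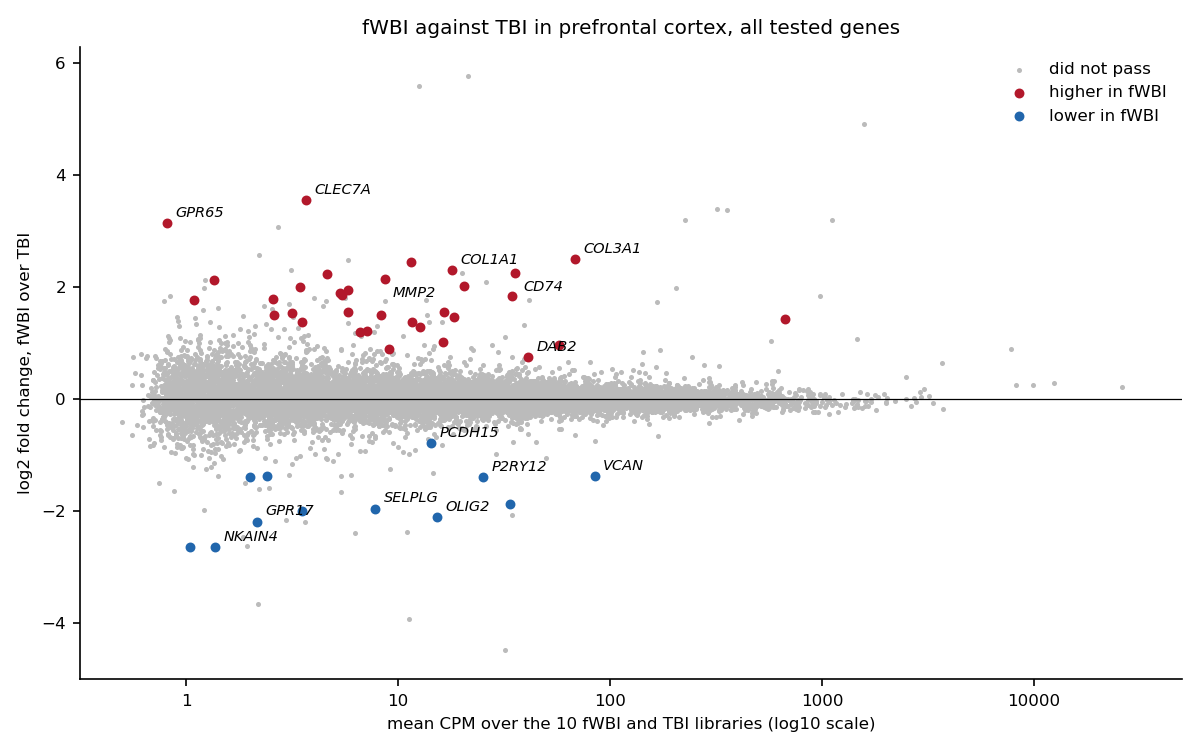
Each point is a gene, with its mean level over the 10 fWBI and TBI libraries on a log axis (CPM) and its log2 fold change, fWBI over TBI, on the vertical axis. The 33 genes higher in fWBI (red) and 12 lower in fWBI (blue) passed an adjusted p of 0.05. CLEC7A had the largest rise among the genes that passed, at 3.54, and the grey points beyond it did not pass.

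Genes of the oligodendrocyte precursor were lower after fWBI. OLIG2, the transcription factor that specifies the oligodendrocyte lineage, had 7.48, 5.42, 4.93, 5.71 and 5.07 CPM in the 5 fWBI animals, 21.3, 21.0, 21.5, 27.5 and 33.2 CPM in the 5 TBI animals and 27.5, 31.3, 27.8, 27.0 and 23.6 CPM in the 5 controls. Every fWBI library was below every other library, while TBI and control overlapped. The difference was -2.12 ± 0.16 (adjusted p = 4.14e-06), or 4.35-fold lower in fWBI, the smallest p of all genes. GPR17, a receptor of precursors that have begun to differentiate, had 0.947, 0.561, 0.651, 0.714 and 0.950 CPM in fWBI, 3.76, 3.92, 2.80, 4.16 and 3.02 CPM in TBI and 9.11, 4.41, 7.81, 6.90 and 4.49 CPM in control. Here the 3 groups formed steps, with all TBI values also below all control values. GPR17 fell by 2.20 ± 0.27 in fWBI against TBI (adjusted p = 0.000968), and TBI minus control was -0.88 (adjusted p = 0.126), which did not pass.

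VCAN codes for versican, a chondroitin sulfate proteoglycan that precursors secrete. It had 56.3, 52.8, 42.0, 31.1 and 51.7 CPM in fWBI, 115, 133, 145, 103 and 116 CPM in TBI and 101, 104, 108, 72.1 and 60.8 CPM in control. The fWBI values were lowest, and the TBI mean was above the control mean, which lay between the irradiated groups. VCAN fell by 1.39 ± 0.18 (adjusted p = 0.00126). The protocadherin gene PCDH15 fell by 0.80 ± 0.11 (adjusted p = 0.00162), and its levels averaged 10.4 ± 1.10 CPM in fWBI, 18.2 ± 1.48 CPM in TBI and 19.9 ± 1.59 CPM in control (SD, n = 5 each). LHFPL3, which codes for a tetraspan membrane protein, averaged 1.33 ± 0.385 CPM in fWBI, 3.46 ± 0.875 CPM in TBI and 4.33 ± 0.446 CPM in control, and fell by 1.38 ± 0.24 (adjusted p = 0.0119). The PCDH15 call was lost in 1 fit of all 45 libraries (adjusted p = 0.361). The LHFPL3 call was lost in a fit of the 10 fWBI and TBI libraries alone (adjusted p = 0.0573) and without fWBI replicate 4, TBI replicate 4 and control replicate 1 together (adjusted p = 0.116).

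Of the 12 tested members of the oligodendrocyte precursor list, 5 fell and 0 rose, with a median of -0.89, whereas the median of all genes was 8.67e-05. At an unadjusted p under 0.05, which 4.84% of all genes tested had, 10 of the 12 were lower. The members that did not pass included NEU4, a sialidase, at -1.38 ± 0.35 (adjusted p = 0.214), CSPG4, the proteoglycan NG2 that pericytes also carry, at -0.98 ± 0.30 (adjusted p = 0.474), and SOX6 at -0.40 ± 0.15 (adjusted p = 0.801). PDGFRA, the receptor by which precursors sense platelet-derived growth factor and which meningeal fibroblasts also carry, stood apart from the rest. It had 102, 118, 97.6, 126 and 85.3 CPM in fWBI and 95.9, 104, 104, 116 and 81.4 CPM in TBI, values that overlapped throughout, with a difference of 0.07 ± 0.14 (adjusted p = 1.00). Mature oligodendrocyte genes did not pass either: 0 of 7 tested members of the myelin list were called, with a median of -0.08. MBP, a main protein of compact myelin, was at -0.24 ± 0.38 (adjusted p = 1.00).

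Of the genes of resting microglia, SELPLG and P2RY12 were lower after fWBI. SELPLG, the selectin ligand that resting microglia carry, had 4.07, 2.90, 2.51, 3.16 and 3.27 CPM in fWBI, 8.39, 8.74, 11.9, 14.5 and 18.6 CPM in TBI and 17.6, 19.6, 13.2, 14.4 and 16.1 CPM in control. P2RY12 had 12.5, 15.7, 13.2, 16.0 and 11.5 CPM in fWBI, 31.5, 25.7, 29.7, 55.1 and 39.8 CPM in TBI and 48.4, 43.1, 42.3, 45.7 and 53.4 CPM in control. In both genes every fWBI animal was below every TBI animal, and the TBI animals were more widely spread than the fWBI animals. SELPLG fell by 1.97 ± 0.22 (adjusted p = 0.000438) and P2RY12 by 1.40 ± 0.18 (adjusted p = 0.00119). Of 5 tested members of the homeostatic microglia list 2 fell, and the median was -0.54. The others were not called: GPR34, a lipid receptor of microglia, was at -0.54 ± 0.19 (adjusted p = 0.683), the transcription factor gene SALL1 at -0.21 ± 0.33 and CSF1R, the receptor that microglia and macrophages need to survive, at 0.27 ± 0.18 (adjusted p = 1.00 for each).

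**Figure D2:**
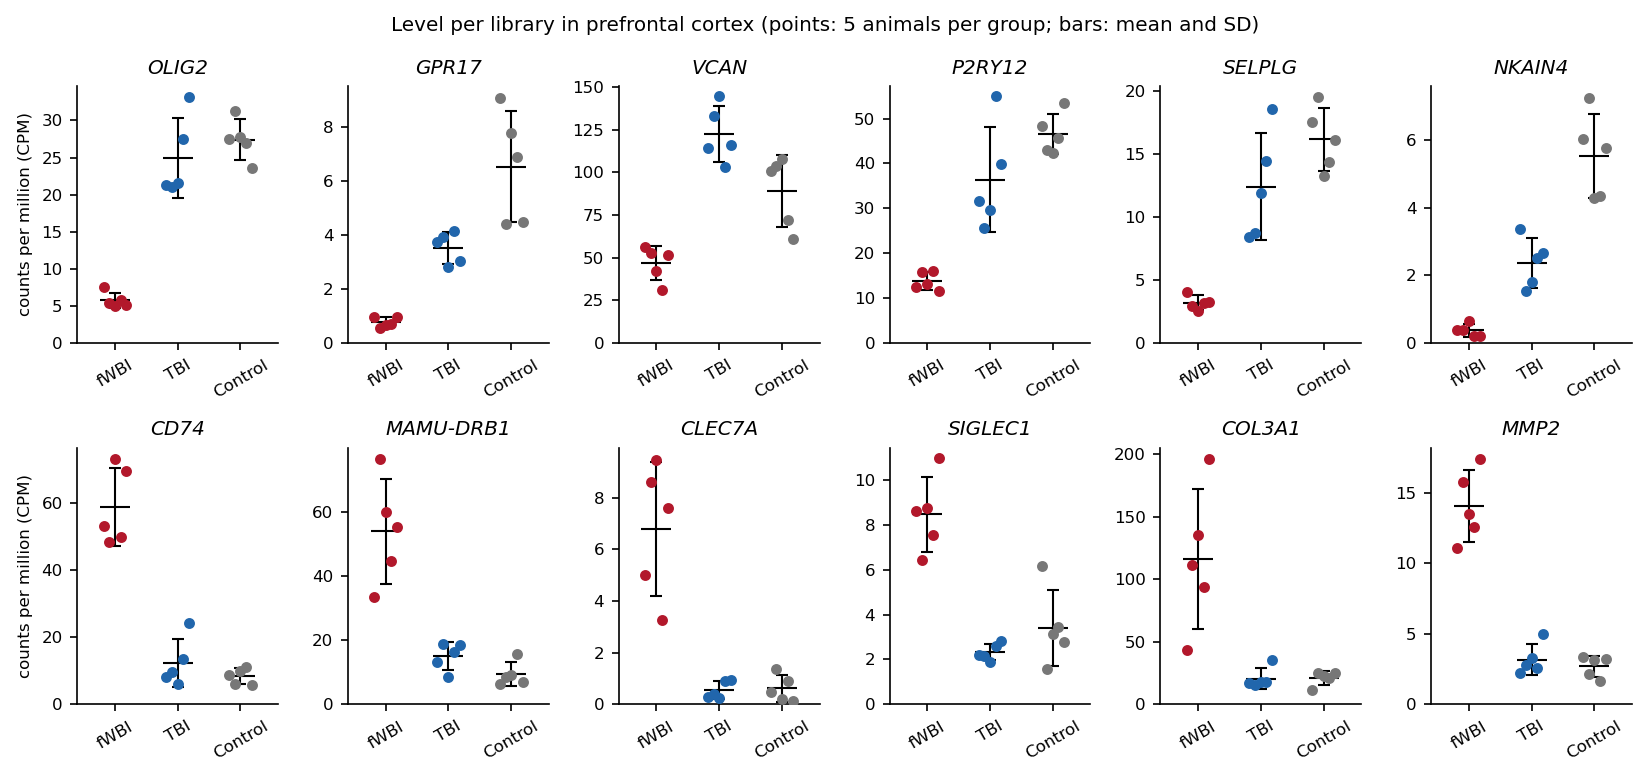
Points give the level in CPM (linear axis from 0) of 12 genes in each prefrontal library, for 5 fWBI, 5 TBI and 5 control animals, and bars give the mean and SD. The fWBI points lie apart from the TBI points in all 12 genes, below them in the 6 genes of the upper row and above them in the 6 genes of the lower row.

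MHC class II genes were higher after fWBI. CD74, the invariant chain that guides class II molecules to the compartment where peptides are loaded, had 53.3, 48.3, 73.2, 50.0 and 69.7 CPM in fWBI, 8.00, 9.75, 6.05, 13.6 and 24.2 CPM in TBI and 8.86, 6.17, 10.00, 11.1 and 5.64 CPM in control. The lowest fWBI value was above the highest TBI value, that of the animal given 8.05 Gy. CD74 rose by 2.25 ± 0.30 (adjusted p = 0.00162), or 4.75-fold. MAMU-DRB1, a class II beta chain, had 33.3, 76.4, 59.8, 44.7 and 55.1 CPM in fWBI, 13.0, 18.9, 8.63, 16.4 and 18.3 CPM in TBI and 6.16, 8.52, 9.14, 15.6 and 7.02 CPM in control, and rose by 1.84 ± 0.26 (adjusted p = 0.0026). The fWBI and TBI values did not overlap in this gene either, while TBI and control did.

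MAMU-DMB, a chain of the chaperone that helps load peptides, averaged 8.35 ± 1.82 CPM in fWBI, 2.23 ± 1.14 CPM in TBI and 1.80 ± 0.463 CPM in control, and rose by 1.89 ± 0.30 (adjusted p = 0.00645). MAMU-DPA, a class II alpha chain, averaged 32.7 ± 3.15 CPM in fWBI, 8.00 ± 5.58 CPM in TBI and 7.08 ± 4.78 CPM in control, and rose by 2.01 ± 0.40 (adjusted p = 0.043). The MAMU-DPA call was close to the threshold: it was lost in 11 of 15 fits that left out 1 animal (any fWBI animal, TBI replicate 1, 2, 3 or 4, control replicate 3 or 5), with an adjusted p of up to 0.137 without TBI replicate 1. Of 7 tested members of the class II list 4 rose and 0 fell, with a median of 1.84, and the list summed to 155 to 200 CPM in fWBI, 43.2 to 90.7 CPM in TBI and 39.2 to 63.3 CPM in control. CIITA, the master regulator of class II genes, was at 1.02 ± 0.42 (adjusted p = 0.923), and MAMU-DOB at -0.11 ± 0.21 (adjusted p = 1.00). Reads of near-identical MHC copies could be split between gene IDs, so the level of a single MHC gene is uncertain. Of the 7 tested class I and peptide-loading genes 0 were called and the median was -0.03. TAPBP, which codes for tapasin, was at 0.01 ± 0.19 and PSMB8, a subunit of the immunoproteasome, at 0.27 ± 0.22. The list has 14 genes, and no ID was paired with B2M, TAP1, TAP2, PSMB10, MAMU-A, MAMU-B or MAMU-E. These were not examined, so the list does not show whether class I genes as a whole changed.

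Receptors of phagocytes formed the next group. CLEC7A, which codes for dectin-1, a receptor for fungal glucans found on activated microglia and myeloid cells, had 5.02, 8.60, 9.48, 3.26 and 7.60 CPM in fWBI, 0.289, 0.380, 0.224, 0.915 and 0.944 CPM in TBI and 0.492, 1.37, 0.190, 0.900 and 0.115 CPM in control. The highest TBI or control library had 1.37 CPM, and the lowest fWBI library had 3.26 CPM. CLEC7A rose by 3.54 ± 0.48 (adjusted p = 0.00162), or 11.7-fold, the largest rise among the genes called. SIGLEC1, a sialic acid receptor of macrophages, had 8.62, 6.45, 8.74, 7.55 and 11.0 CPM in fWBI, 2.22, 2.15, 1.91, 2.58 and 2.83 CPM in TBI and 6.16, 1.57, 3.14, 3.45 and 2.76 CPM in control, and rose by 1.84 ± 0.27 (adjusted p = 0.00306). Its fWBI values did not overlap TBI or control, although control replicate 1, at 6.16 CPM, came close to the lowest fWBI animal, at 6.45 CPM.

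The scavenger receptor gene MSR1 averaged 5.48 ± 1.35 CPM in fWBI, 1.38 ± 0.609 CPM in TBI and 1.26 ± 0.867 CPM in control, and rose by 2.00 ± 0.39 (adjusted p = 0.031). LYZ, the gene of the antibacterial enzyme lysozyme, averaged 12.3 ± 3.54 CPM in fWBI, 4.34 ± 1.55 CPM in TBI and 3.15 ± 0.679 CPM in control, and rose by 1.50 ± 0.26 (adjusted p = 0.0119). STAB1, the scavenger receptor stabilin-1 of macrophages and endothelium, averaged 76.2 ± 6.62 CPM in fWBI, 39.1 ± 11.9 CPM in TBI and 42.0 ± 7.08 CPM in control, and rose by 0.96 ± 0.17 (adjusted p = 0.0183). Each of these 3 calls was lost in some fit that left out 1 animal. LYZ was lost without fWBI replicate 2 (adjusted p = 0.0504), STAB1 in 4 fits without 1 animal (fWBI replicate 2 or 5, TBI replicate 2 or 3; up to 0.068) and MSR1 in 7 (fWBI replicate 2, 3 or 5, TBI replicate 1, 2, 4 or 5; up to 0.106).

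Of 9 tested members of the monocyte and perivascular macrophage list 4 rose, and 9 of 9 had positive fold changes with a median of 0.53. The list summed to 215 to 294 CPM in fWBI, 108 to 163 CPM in TBI and 86.7 to 147 CPM in control. CD163 and MRC1, scavenger receptors that mark perivascular macrophages, were at 0.20 ± 0.26 (adjusted p = 1.00) and 0.50 ± 0.16 (adjusted p = 0.487). Of 15 tested members of the activated and lipid-laden phagocyte list 2 rose, CLEC7A and MSR1, and the median was 0.27. APOC1, an apolipoprotein gene, was at 1.79 ± 0.58 (adjusted p = 0.585), TREM2, a lipid-sensing receptor of microglia, at 0.35 ± 0.27, and SPP1, which codes for osteopontin, at -0.25 ± 0.25 (adjusted p = 1.00 for the last 2). CXCR4, the receptor for the chemokine CXCL12, averaged 5.09 ± 0.822 CPM in fWBI, 1.97 ± 0.328 CPM in TBI and 2.08 ± 0.652 CPM in control, and rose by 1.36 ± 0.22 (adjusted p = 0.00755), the 1 call among 17 tested genes of cytokines, chemokines and their receptors. The CXCR4 call was lost in the fit of all 45 libraries (adjusted p = 0.0862). RUNX1, a transcription factor of blood cell development, averaged 2.22 ± 0.368 CPM in fWBI, 0.488 ± 0.385 CPM in TBI and 0.39 ± 0.164 CPM in control, and rose by 2.13 ± 0.37 (adjusted p = 0.0132). The RUNX1 call was lost in 4 fits, without fWBI replicate 2 or TBI replicate 1, 2 or 4, with an adjusted p of up to 0.056.

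A further 6 genes of myeloid cells were called and are named here after their values were seen. CD14, the co-receptor for bacterial lipopolysaccharide, rose by 1.54 ± 0.28, with a mean of 24.5 CPM in fWBI, 8.43 CPM in TBI and 6.23 CPM in control. CYBB, the catalytic subunit of the phagocyte NADPH oxidase, rose by 1.02 ± 0.17, with 21.9 CPM in fWBI, 10.8 CPM in TBI and 10.2 CPM in control. CD163L1, a scavenger receptor related to CD163, rose by 1.21 ± 0.17, with 9.98 CPM in fWBI, 4.29 CPM in TBI and 4.51 CPM in control. CYBB and CD163L1 were called in every fit that left out 1 animal. CD84, an adhesion receptor of leukocytes, rose by 1.52 ± 0.28, the endocytic adaptor DAB2 by 0.74 ± 0.13, the smallest change among the calls, and GPR65, a proton-sensing receptor of leukocytes, by 3.13 ± 0.56. GPR65 was barely detected outside fWBI, with 1.33, 1.96, 1.30, 1.63 and 1.16 CPM in fWBI, 0, 0, 0.112, 0.499 and 0.0944 CPM in TBI and 0.123, 0.392, 0.0952, 0 and 0.115 CPM in control. Its fold change rests on few counts. The calls of CD14, CD84, DAB2 and GPR65 were lost without fWBI replicate 2, without TBI replicate 1 and without TBI replicate 2, with an adjusted p of up to 0.0926 for CD14, 0.0737 for CD84, 0.0524 for DAB2 and 0.0637 for GPR65. They were also lost without fWBI replicate 4 or TBI replicate 3 or 4 for CD14, without fWBI replicate 3 or 5 or TBI replicate 3 or 4 for CD84, and without TBI replicate 3 or 5 for GPR65.

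T cell markers were mostly close to the limit of detection. Of 13 T cell and cytotoxic lymphocyte genes with an ID only 3 had enough counts to be tested, and 0 were called. CD3E, a chain of the T cell receptor complex, had 1 to 5 counts per library in fWBI and 1 to 6 counts in TBI. CD4, which macaque macrophages as well as helper T cells carry, had 18.8, 19.8, 21.2, 16.9 and 24.7 CPM in fWBI, 6.27, 5.57, 5.94, 7.74 and 13.3 CPM in TBI and 3.20, 2.94, 12.0, 10.3 and 7.59 CPM in control. The fWBI values lay above the TBI values, but the difference of 1.38 ± 0.33 did not pass (adjusted p = 0.161). CD8A was at -0.25 ± 0.31 (adjusted p = 1.00).

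**Figure D3:**
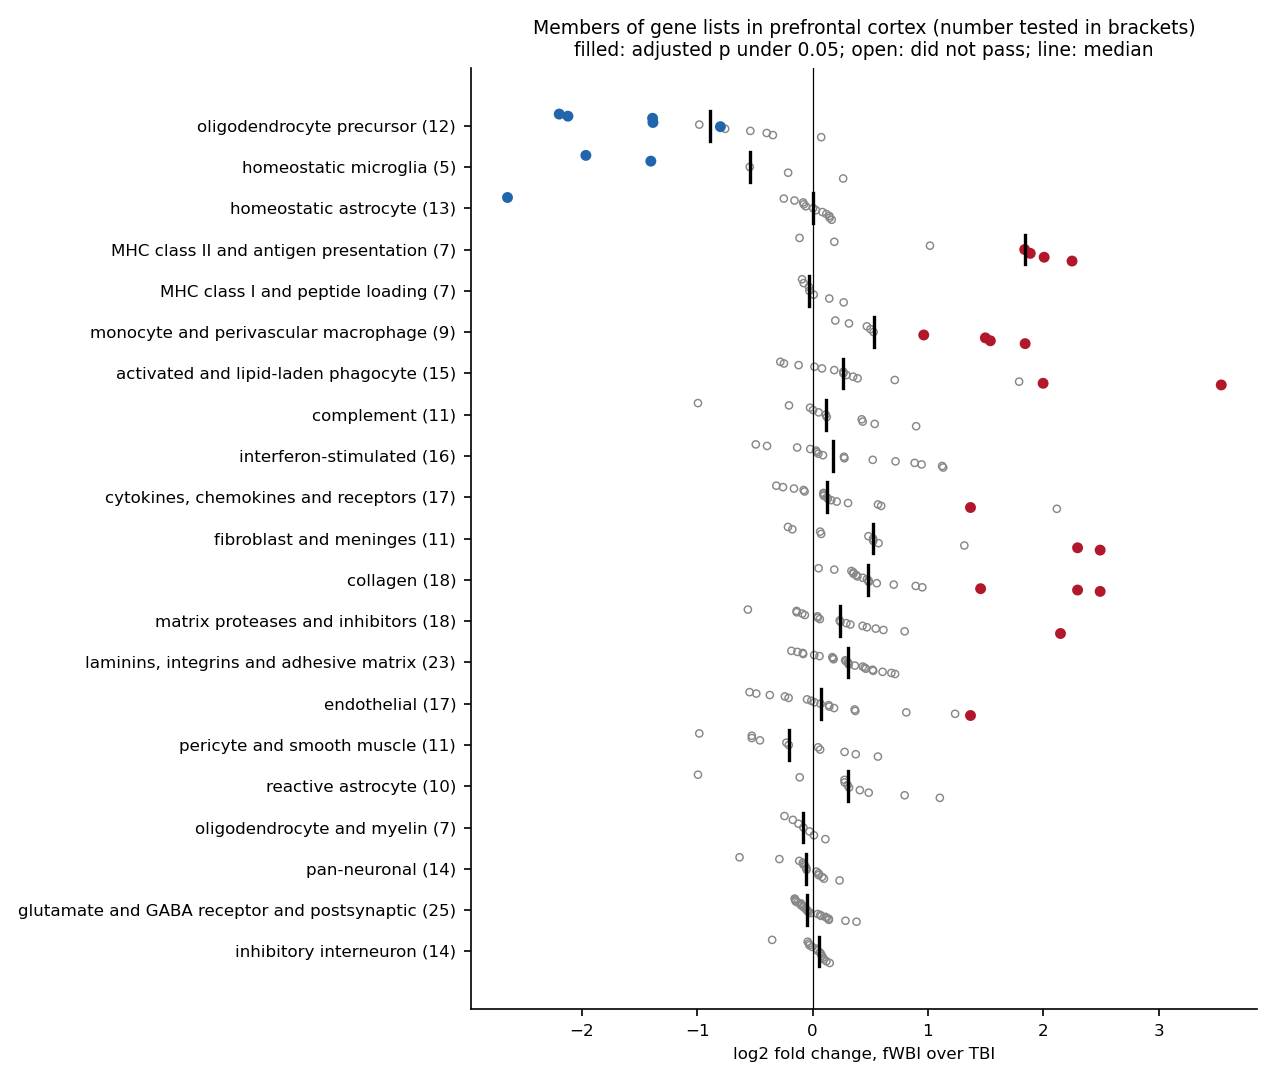
Each row is a gene list with the number of tested members in brackets, and each point a member's log2 fold change, fWBI over TBI. Filled points passed an adjusted p of 0.05 (blue lower, red higher in fWBI), open points did not, and the black line is the median. Only a selection of the lists is drawn. Among the lists drawn the median ran from -0.89 for the oligodendrocyte precursor list to 1.84 for MHC class II.

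Collagen genes and a matrix protease were higher after fWBI. COL3A1, a fibrillar collagen of vessel walls, had 43.8, 111, 136, 93.7 and 196 CPM in fWBI, 16.8, 15.3, 18.0, 17.4 and 35.3 CPM in TBI and 11.7, 24.7, 22.7, 21.0 and 25.2 CPM in control. The fWBI animals varied widely, from 43.8 to 196 CPM, yet none overlapped TBI, in which replicate 5 was highest. COL3A1 rose by 2.49 ± 0.34 (adjusted p = 0.00162), or 5.63-fold. COL1A1, the main chain of fibrillar collagen type I, had 16.7, 25.9, 33.6, 24.6 and 48.4 CPM in fWBI, 3.47, 3.92, 2.80, 3.74 and 16.0 CPM in TBI and 4.31, 6.76, 6.48, 4.05 and 8.97 CPM in control. TBI replicate 5, at 16.0 CPM, came close to the lowest fWBI animal, at 16.7 CPM. COL1A1 rose by 2.30 ± 0.43 (adjusted p = 0.0217), a call lost in 7 fits without 1 animal (fWBI replicate 2, 3 or 5, TBI replicate 1, 2, 3 or 4), with an adjusted p of up to 0.0926. It was also lost on the fWBI and TBI libraries alone (adjusted p = 0.0764) and without fWBI replicate 4, TBI replicate 4 and control replicate 1 together (adjusted p = 0.104).

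MMP2, a gelatinase that cuts collagen and basement membrane, had 11.1, 15.8, 13.5, 12.5 and 17.4 CPM in fWBI, 2.22, 2.79, 3.25, 2.58 and 5.00 CPM in TBI and 3.32, 2.15, 3.14, 1.65 and 3.22 CPM in control. Every fWBI animal was more than 2 times as high as every TBI and control animal. MMP2 rose by 2.14 ± 0.23 (adjusted p = 0.000249), or 4.42-fold, the smallest p among the rises. COL6A3, a chain of the microfibril-forming collagen type VI, averaged 27.0 ± 8.25 CPM in fWBI, 9.85 ± 2.01 CPM in TBI and 9.13 ± 3.65 CPM in control, and rose by 1.46 ± 0.28 (adjusted p = 0.0319). The COL6A3 call was lost in 9 fits, without fWBI replicate 2, 3 or 5, any 1 TBI animal or control replicate 3, with an adjusted p of up to 0.113.

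Of 18 tested collagen genes 3 rose and 0 fell, and all 18 had positive fold changes with a median of 0.48. COL18A1, the source of endostatin, lay just outside the threshold at 0.89 ± 0.18 (adjusted p = 0.0523), and the basement membrane collagen COL4A1 was at 0.70 ± 0.18 (adjusted p = 0.192). Of 18 matrix proteases and inhibitors MMP2 was the 1 call. TIMP1, an inhibitor of matrix proteases, was at 0.80 ± 0.27 (adjusted p = 0.64) and MMP14, which activates MMP2 at the cell surface, at 0.43 ± 0.21 (adjusted p = 1.00). Of 23 laminins, integrins and adhesive matrix genes 0 were called, with a median of 0.31, FN1, which codes for fibronectin, at 0.61 ± 0.22 (adjusted p = 0.734) and LAMA2, a laminin chain, at 0.31 ± 0.18 (adjusted p = 1.00).

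The fibroblast and meninges list, which holds COL1A1 and COL3A1, summed to 557 to 895 CPM in fWBI, 348 to 580 CPM in TBI and 276 to 450.4 CPM in control, with a median of 0.52 over 11 tested members. Its members LUM and DCN, small proteoglycans of connective tissue, were at 1.32 ± 0.37 (adjusted p = 0.319) and 0.52 ± 0.22 (adjusted p = 0.951). Whether the share of meninges or vessel wall in the dissections contributed to the collagen values was not tested. Among endothelial genes 1 of 17 rose, CD93, a receptor of endothelium and myeloid cells. CD93 averaged 16.9 ± 2.86 CPM in fWBI, 6.48 ± 3.21 CPM in TBI and 6.02 ± 1.04 CPM in control and rose by 1.37 ± 0.27 (adjusted p = 0.0438). This was the largest adjusted p among the calls, and the call was lost in 12 of 15 fits without 1 animal (any fWBI animal, TBI replicate 1, 3 or 4, control replicate 2, 3, 4 or 5), up to 0.149 without TBI replicate 4. PECAM1 and VWF, which mark endothelium, were at 0.15 ± 0.19 and -0.21 ± 0.44, and of 11 pericyte and smooth muscle genes 0 were called, PDGFRB being at 0.05 ± 0.21 and RGS5 at 0.37 ± 0.15 (adjusted p = 0.902). The endothelial list summed to 424 to 511 CPM in fWBI and 400.4 to 624 CPM in TBI.

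Of the matrix genes outside the naming rule, ASPN, the small proteoglycan asporin, rose by 1.55 ± 0.29, CPXM1, a secreted carboxypeptidase-like protein, by 1.79 ± 0.33, and LRRC17, a secreted leucine-rich repeat protein, by 0.88 ± 0.17; they are named after their values were seen. ASPN averaged 8.69 ± 1.71 CPM in fWBI, 2.91 ± 1.55 CPM in TBI and 2.39 ± 0.623 CPM in control. The ASPN call was lost in 8 fits without 1 animal (fWBI replicate 2, 3, 4 or 5, TBI replicate 1, 2, 3 or 4; adjusted p up to 0.0884) and the CPXM1 call in 6 (fWBI replicate 2 or 5, TBI replicate 1, 2, 3 or 4; up to 0.0805). The LRRC17 call was lost in 10 (fWBI replicate 1, 2, 4 or 5, TBI replicate 1, 2, 3 or 5, control replicate 4 or 5; up to 0.127).

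NKAIN4, which codes for a partner of the sodium pump and is on the homeostatic astrocyte list, had the largest fall of the called genes with a symbol. It had 0.379, 0.374, 0.651, 0.204 and 0.211 CPM in fWBI, 3.37, 1.52, 1.79, 2.50 and 2.64 CPM in TBI and 6.03, 7.24, 4.29, 4.35 and 5.75 CPM in control. The groups formed 3 steps with no overlap, lowest in fWBI and highest in control. NKAIN4 fell by 2.65 ± 0.33 (adjusted p = 0.00111), or 6.29-fold lower in fWBI. All fWBI values were below 1 CPM, so this fold change rests on few counts. TBI minus control was -1.21 (adjusted p = 0.0985), which did not pass. NKAIN4 was the 1 call among 13 tested homeostatic astrocyte genes, whose median was 0.0055. Of 10 reactive astrocyte genes 0 were called, with GFAP, the intermediate filament of astrocytes, at 0.32 ± 0.20 and VIM, which codes for vimentin, at 0.28 ± 0.18 (adjusted p = 1.00 for each).

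ENPEP, a membrane peptidase that cleaves angiotensin II, had 1.52, 1.31, 1.77, 1.43 and 0.950 CPM in fWBI, 4.92, 5.44, 3.59, 7.32 and 6.89 CPM in TBI and 3.69, 6.95, 4.19, 11.1 and 8.51 CPM in control, and fell by 2.01 ± 0.31 (adjusted p = 0.00596). STK32A, a serine/threonine kinase gene, averaged 1.09 ± 0.412 CPM in fWBI, 2.91 ± 0.419 CPM in TBI and 4.26 ± 0.534 CPM in control, and fell by 1.40 ± 0.24 (adjusted p = 0.0122), a call lost in a fit of the fWBI and TBI libraries alone (adjusted p = 0.0573). Neither gene overlapped between fWBI and TBI. Of the rises outside the naming rule, DNASE2B, an acid endonuclease gene, rose by 1.76 ± 0.24 (adjusted p = 0.00164) and IQGAP2, a scaffold protein of the cytoskeleton, by 1.27 ± 0.20 (adjusted p = 0.00619), and both were named after their values were seen. DNASE2B was low but even within groups, with 1.68 ± 0.118 CPM in fWBI, 0.49 ± 0.0975 CPM in TBI and 0.327 ± 0.101 CPM in control. The 8 IDs without a symbol comprised 6 rises and 2 falls, among them ENSMMUG00000015707, which had the second smallest p and fell by 1.89 ± 0.16 (adjusted p = 1.2e-05).

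Other fits also ended calls. Of the 37 genes with a symbol, LHFPL3, STK32A, ASPN, COL1A1 and CD93 were lost on the fWBI and TBI libraries alone (adjusted p 0.0573 to 0.13), and PCDH15, CXCR4, STAB1, CPXM1, ASPN and LRRC17 in the fit of all 45 libraries (0.0862 to 0.635). With a myelin covariate MSR1, LRRC17, MAMU-DPA and CD93 were lost (0.051 to 0.0568). Without fWBI replicate 4, TBI replicate 4 and control replicate 1 together, ASPN, CD14, CD93, COL1A1, LHFPL3, LRRC17, MAMU-DPA, RUNX1 and STAB1 were lost. All 10 falls with a symbol and 12 of 27 rises with a symbol were called in each of the 15 fits that left out 1 animal. Those 12 rises were MMP2, CD74, CLEC7A, COL3A1, DNASE2B, CD163L1, MAMU-DRB1, SIGLEC1, IQGAP2, MAMU-DMB, CXCR4 and CYBB. The number of calls was 27 without fWBI replicate 2, 29 without TBI replicate 2 and, at most, 54 without TBI replicate 5. The highest-ranked genes outside the threshold after COL18A1 were PLAC8 at -1.99 ± 0.41 (adjusted p = 0.0581) and, with a symbol, FERMT1 at -1.51 ± 0.32 (adjusted p = 0.0671), CD200R1 at 1.98 ± 0.42 and TBX18 at 1.03 ± 0.22 (adjusted p = 0.0702 for each).

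The same genes can be set against control. The comparisons fWBI minus control and TBI minus control share the same 5 control libraries, so their values are given side by side only. Of the 15531 genes tested in prefrontal cortex, 182 differed between fWBI and control, and edgeR called 0 between TBI and control. Between TBI and control 1826 genes had an unadjusted p under 0.05, more than the 751 (4.84%) between fWBI and TBI. The 0 calls therefore do not show TBI cortex to equal control. OLIG2 was at -2.26 in fWBI minus control and -0.14 in TBI minus control. CD74 was at 2.82 in fWBI minus control and 0.57 in TBI minus control, and MAMU-DRB1 at 2.55 in fWBI minus control and 0.71 in TBI minus control. COL3A1 was at 2.46 in fWBI minus control and -0.03 in TBI minus control. The control mean lay between the means of the irradiated groups in 16 of the 45 genes, SIGLEC1 and VCAN among them: SIGLEC1 was at 1.32 in fWBI minus control and -0.52 in TBI minus control, and VCAN at -0.93 in fWBI minus control and 0.46 in TBI minus control. None of these TBI values passed.

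**Figure D4:**
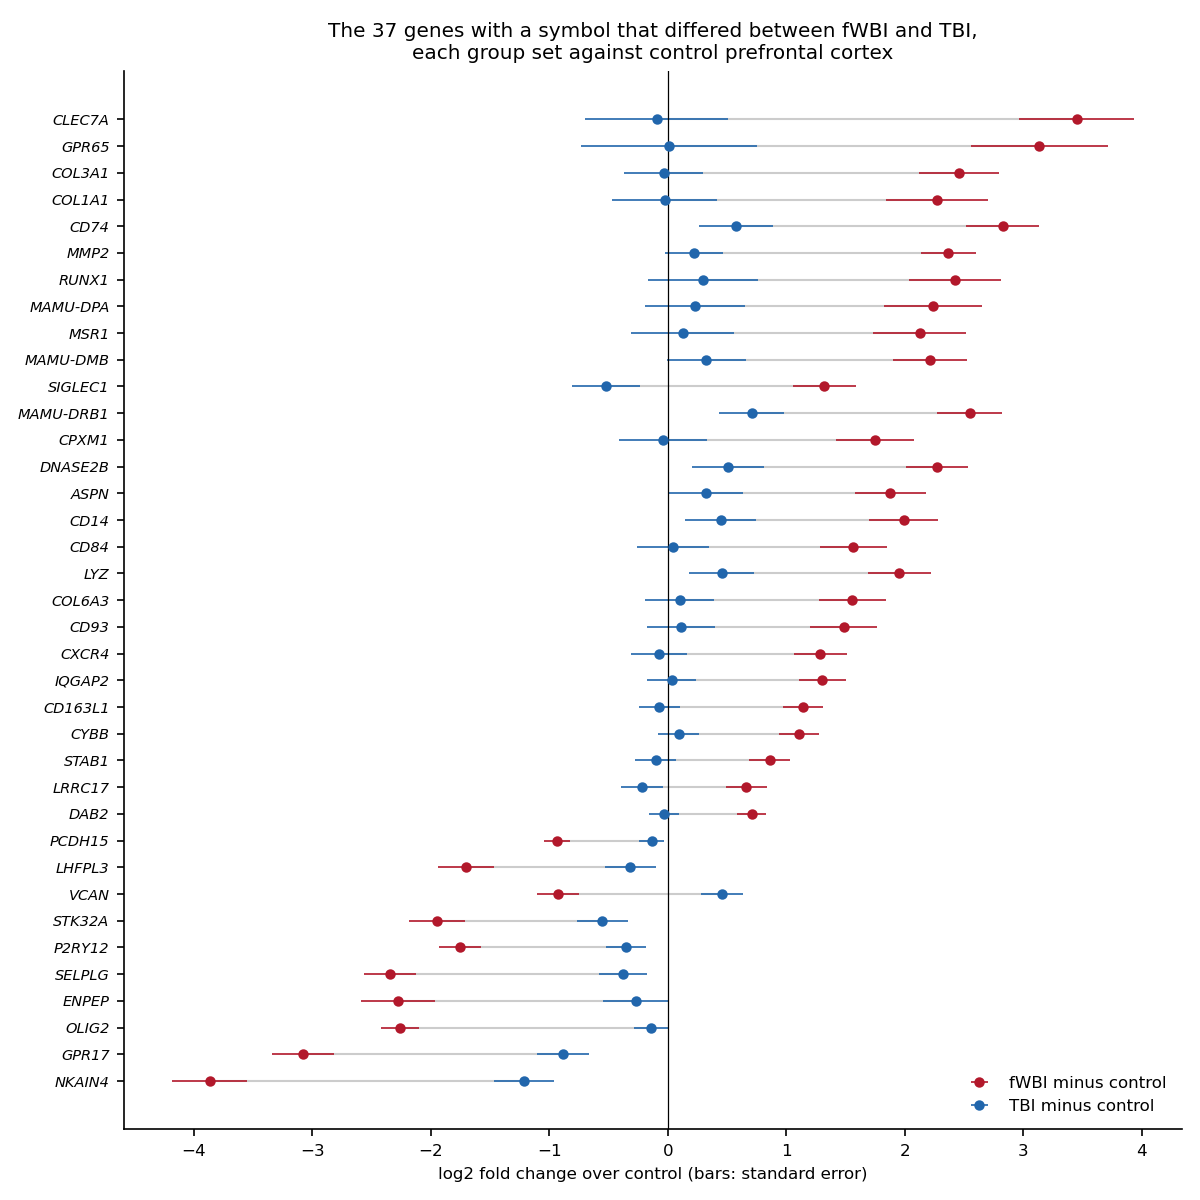
For the 37 called genes with a symbol, points give the log2 fold change of fWBI (red) and of TBI (blue) over control prefrontal cortex, with the standard error as bars. The same 5 controls serve both. The TBI points lie nearer to 0 than the fWBI points in all 37 genes, and NKAIN4 and GPR17 have the lowest TBI points, at -1.21 and -0.88.

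Of the 43 gene lists, 40 had a tested member, 11 had a called member and 29 had none. Neuronal lists were among those without one. Of 14 pan-neuronal genes 0 were called (median -0.05), with SNAP25, a synaptic fusion protein, at -0.05 ± 0.08 and SYT1, its calcium sensor, at 0.05 ± 0.10. The lists of excitatory neurons (14 tested, median -0.01), inhibitory interneurons (14 tested, median 0.05), postsynaptic receptors and scaffolds (25 tested, median -0.05) and synaptic vesicles (13 tested, median -0.06) also had 0 calls. In the complement list 0 of 11 were called, with C1QC, a chain of the initiating C1q complex, at 0.43 ± 0.23 and C1R, its protease, at -0.02 ± 0.28. The values went both ways: C3, the central complement protein, was at -0.99 ± 0.25 (adjusted p = 0.192) and C3AR1, the receptor of its fragment, at 0.90 ± 0.23 (adjusted p = 0.195). Of 16 interferon-stimulated genes 0 were called, with a median of 0.18, IFIT1 at 0.27 ± 0.26 and IFIT3 at 0.04 ± 0.17. At an unadjusted p under 0.05, which 4.84% of all genes tested had, 4 of the 16 were higher and 0 lower. IFI44 had the smallest adjusted p of this list, at 0.88 ± 0.20 (adjusted p = 0.107). The lists of p53 targets (12 tested, median 0.05), DNA repair (26 tested, median -0.0038), cell cycle (20 tested, median 0.02), senescence (6 tested, median 0.16) and cholesterol synthesis (14 tested, median 0.10) had 0 calls as well. Listed genes without a paired ID could not be examined. Among them were CDKN1A, MDM2, FAS, GDF15 and PHLDA3 of the p53 targets, CDKN2A and CDKN1A of the senescence list, and MKI67 of the cell cycle list. The p53 median was 0.16 without the filter on low counts. EDA2R, a p53 target and receptor of the tumour necrosis factor family, fell below that filter and was not tested; it had 10, 14, 14, 1 and 14 counts in fWBI, 2, 3, 2, 0 and 0 counts in TBI and 1, 2, 3, 0 and 2 counts in control, and is named after its values were seen. Differences beyond 1 on the log2 scale that did not pass, such as those of APOC1 and NEU4 above, show that a list with 0 calls may still hold differences of that size.

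The same animals gave hippocampus and white matter, which allowed the difference to be compared between regions within animals. The fWBI and TBI groups differed in 52 of 15357 genes (0.339%) in hippocampus and in 1122 of 15235 genes (7.36%) in white matter. In white matter control replicates 1 and 3 stood apart, with pan-neuronal sums of 12100 and 5540 CPM, against 840 to 1540 CPM in the fWBI and TBI libraries and 947 to 1250 CPM in the other controls. Without these 2 libraries, left out after seeing the data, 1640 genes differed in white matter. Of the 45 genes called in prefrontal cortex, 28 were called in the same direction in hippocampus (62.2% of the prefrontal calls and 53.8% of the hippocampal calls), and 34 in white matter (75.6% of the prefrontal calls and 3.03% of the white matter calls). By direction, 21 of 32 rises and 7 of 12 falls tested in hippocampus were called there, where 0.247% of genes rose and 0.0912% fell. In white matter 25 of 33 rises and 9 of 11 falls were called, where 4.82% of genes rose and 2.54% fell. CD74 was at 2.25 in prefrontal cortex, 2.76 in hippocampus and 2.14 in white matter. MMP2 was at 2.14 in prefrontal cortex, 2.16 in hippocampus and 2.36 in white matter.

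No gene passed the test of whether the fWBI and TBI difference was unlike in prefrontal cortex and hippocampus: 0 of 16614 passed in edgeR, with 339 at an unadjusted p under 0.05, and 0 passed in limma-voom, with 317. IQGAP2 had the smallest p of that test (adjusted p = 0.517), at 1.27 in prefrontal cortex and 0.03 in hippocampus. Next among genes with a symbol were C11H12orf56, TDH, PLIN2 and MAMU-DMB. As log2 values of prefrontal cortex minus hippocampus, these were -1.38, -2.83, -2.47 and 1.18. MAMU-DMB was at 1.89 in prefrontal cortex and 0.72 in hippocampus. On simulated counts the edgeR test against hippocampus recovered 52.5% of 2-fold changes, so 0 calls leave room for differences of that size. Between prefrontal cortex and white matter 619 of 16614 genes differed (3.73%), among them 14 of the 45 prefrontal calls, 12 of these with a symbol. This count was 843 without the white matter libraries of control replicates 1 and 3 (618 shared) and 429 on the 20 fWBI and TBI libraries of the 2 regions (359 shared). The difference was larger in prefrontal cortex for OLIG2, at -2.12 against -1.01 in white matter (adjusted p of the difference = 0.021). SELPLG was at -1.97 in prefrontal cortex and -0.25 in white matter (adjusted p = 0.000433), and CD163L1 at 1.21 in prefrontal cortex and -0.21 in white matter (adjusted p = 0.0165). The OLIG2 difference was lost without fWBI replicate 3 or TBI replicate 1, 4 or 5, with an adjusted p of up to 0.0842, and the CD163L1 difference without fWBI replicate 2 or TBI replicate 3 or 5.

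The difference was smaller in prefrontal cortex for PCDH15, at -0.80 in prefrontal cortex and -3.70 in white matter (adjusted p = 2.13e-05), and for NKAIN4, at -2.65 in prefrontal cortex and -5.00 in white matter (adjusted p = 0.0198), a call lost without fWBI replicate 1 or 2 and in a fit of the 20 libraries compared. Among the rises, LYZ was at 1.50 in prefrontal cortex and 4.16 in white matter (adjusted p = 9.41e-06), SIGLEC1 at 1.84 in prefrontal cortex and 3.56 in white matter (adjusted p = 0.00548) and CD93 at 1.37 in prefrontal cortex and 3.09 in white matter (adjusted p = 0.00345). The genes with the smallest p for this regional difference were PLPPR1, CSPG5, ASIC4, MYT1 and ADAMTSL2, none of them called in prefrontal cortex. MYT1, a transcription factor of oligodendrocyte precursors, was at -0.54 in prefrontal cortex and -3.99 in white matter. The myelin list summed to 693 to 1550 CPM in fWBI prefrontal cortex, 734 to 1690 CPM in TBI prefrontal cortex, 21200 to 38400 CPM in fWBI white matter and 38200 to 53400 CPM in TBI white matter, so the fWBI and TBI ranges overlapped widely in cortex and barely met in white matter. Their part in the regional differences was not tested.

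**Figure D5:**
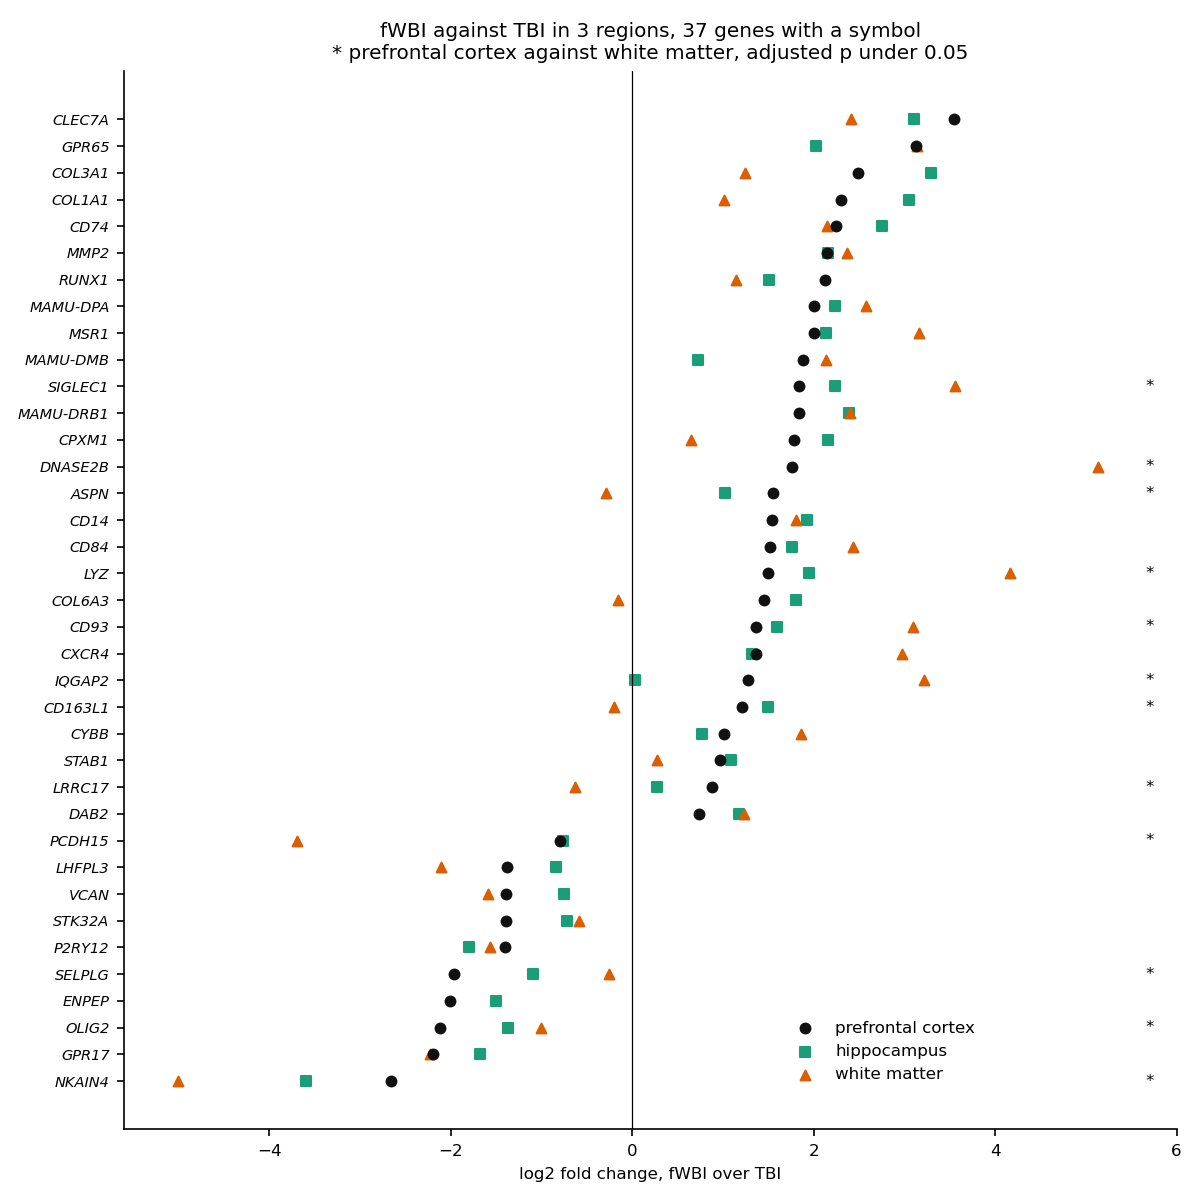
For the 37 genes with a symbol called in prefrontal cortex, the log2 fold change of fWBI over TBI is shown in prefrontal cortex (black circles), hippocampus (green squares) and white matter (orange triangles). Stars mark the 12 genes whose difference in prefrontal cortex was unlike that in white matter at an adjusted p of 0.05. DNASE2B was not tested in hippocampus nor ENPEP in white matter.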

How the data were processed

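Total RNA was sequenced from prefrontal cortex, hippocampus and white matter of 15 rhesus macaques, 5 separate animals in each of 3 groups. The values used are the raw counts of reads per gene that the authors deposited for all 45 libraries in 1 table. Per the labels' protocols, ribosomal RNA was removed and a stranded kit for total RNA was used. Per the submitters' processing notes, FastQC, STAR, featureCounts and DESeq2 were used. Genome build, annotation and strand setting are not given in the sources used, so no coordinates or sequences are given, and reads of overlapping or near-identical genes could be split. The counts were whole numbers with unequal totals, so they had not been scaled. Symbols were paired with 15769 of 30246 gene IDs by ID.

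The comparison was fitted on the 15 prefrontal libraries of 3 groups, which share 1 estimate of the spread, in edgeR 4.0.16 (R 4.3.3) by the quasi-likelihood test with 12 residual degrees of freedom, after TMM scaling and the package's default filter for low counts. P-values were two-sided and adjusted by the Benjamini-Hochberg method over all tested genes, with a threshold of 0.05. Differences between regions were tested as an interaction with an animal block in 1 fit of the 45 libraries. CPM values use TMM-scaled library sizes, and group overlap was judged on log2 CPM with a prior count of 2. Replicates differed by more than sampling noise, with a chi-square per gene of at least 6.94 for every pair within a group.

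The members and the 43 gene lists were chosen with earlier results of these data known. Genes were named by a fixed rule: the 10 largest rises and 10 largest falls among called genes that had a symbol, averaged at least 1 CPM over the fWBI and TBI libraries and did not overlap between these groups; up to 3 called members of each list; the first 2 tested members of a described list with none called; and 5 genes for each regional difference. Genes outside the rule were chosen after their values were seen.

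The steps were tested on simulated counts drawn at the real library sizes. In them 200 genes that averaged at least 10 counts in prefrontal cortex were changed. Every gene was drawn with the same spread, without animal effects or outlying libraries, so the simulated rates need not hold for the real counts. In the prefrontal comparison 4.55% of calls were false and 90.1% of 2-fold changes were recovered. For prefrontal cortex against white matter these were 6.9% and 39.6%, and against hippocampus 4.52% and 52.5%. The labels do not say whether replicate numbers pair animals across groups, and the animals were treated as unpaired. Same-numbered fWBI and TBI libraries deviated together with r from -0.0659 to 0.455, over 0.1 in 3 of 5. Alternatives were other scaling, tests (DESeq2 1.42.0, limma-voom 3.58.1), filters, a fold minimum, other libraries in the fit, a myelin covariate, a replicate block and leaving out each animal. Counting depth limits genes below about 1 CPM most.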

Additional observations from a re-analysis of the deposited data

Results flagged for a closer look

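Within groups of 5 prefrontal libraries, 7 values of called genes lay far from the other 4 in log2 CPM (Dixon's test); 111 groups were checked, and chance marks about 1 in 20. TBI replicate 5, the animal given 8.05 Gy, was high in COL3A1, at 35.3 CPM against 15.3 to 18.0 CPM in the other TBI animals, and in COL1A1, at 16.0 CPM against 2.80 to 3.92 CPM. Control replicate 1 was low in COL3A1, at 11.7 CPM against 21.0 to 25.2 CPM, and in COL6A3, at 2.95 CPM against 9.43 to 12.7 CPM. Control replicate 4 was low in DNASE2B, at 0.15 CPM against 0.345 to 0.392 CPM, and high in MAMU-DPA, at 15.6 CPM against 4.43 to 5.75 CPM. In fWBI, replicate 1 was low in ASPN, at 5.78 CPM against 8.60 to 10.0 CPM.

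The fWBI minus TBI difference was unlike between prefrontal cortex and white matter for 12 called genes with a symbol, by edgeR's interaction test. As log2 values of prefrontal cortex minus white matter, these were -1.09 for OLIG2, -1.64 for SELPLG, 2.41 for NKAIN4 and 2.93 for PCDH15. They were -3.26 for DNASE2B, 1.35 for CD163L1, -1.78 for SIGLEC1, -1.99 for IQGAP2, -2.55 for LYZ, 1.95 for ASPN, 1.52 for LRRC17 and -1.67 for CD93. The ASPN difference was lost without TBI replicate 3 and in a fit of the 20 libraries compared. The genes with the smallest p of that test were PLPPR1 (2.71), CSPG5 (1.79), ASIC4 (3.03), MYT1 (3.44) and ADAMTSL2 (3.02).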

How the results depend on the processing

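The count of 45 genes (33 higher, 12 lower in fWBI) was 93 (62 higher, 31 lower) by DESeq2, 76 (57 higher, 19 lower) by limma-voom and 5 (2 higher, 3 lower) when a log2 difference beyond 1 was required. It was 45 with DESeq2's size factors, 52 without a filter on low counts, 43 with a mean of at least 10 counts, 46 on the fWBI and TBI libraries alone (40 shared), 52 on all 45 libraries (38 shared) and 41 with a myelin covariate. Leaving out 1 animal gave 27 to 54 genes, 16 to 40 higher and 11 to 14 lower. The rises numbered 16 without fWBI replicate 2, 18 without TBI replicate 1, 18 without TBI replicate 2 and 21 without TBI replicate 3. As the labels do not say whether replicate numbers pair the animals, the fit with them as a block is only an alternative. That fit called 61 genes, 44 higher and 17 lower, among them all 45. By correlation 2 of 5 fWBI libraries matched best with their own number in TBI. The fit without fWBI replicate 4, TBI replicate 4 and control replicate 1, added after seeing the data, called 38. The 619 genes that differed between prefrontal cortex and white matter were 312 to 702 without 1 animal, among them 312 without fWBI replicate 2, 376 without fWBI replicate 4, and 411, 402, 369 and 393 without TBI replicate 1, 2, 3 and 5. They were 843 without the white matter libraries of control replicates 1 and 3, 533 by limma-voom and 429 on the 20 libraries compared. The count against hippocampus was 0 in edgeR and limma-voom under each alternative. For fWBI against TBI in prefrontal cortex, none of the 37 genes with a symbol changed direction under any alternative. Some regional differences that were not called did change sign, such as that of GPR17 against white matter, from -0.13 to 0.31. The causes of these shifts were not tested. The fWBI and TBI groups differ in several features of exposure at once, each rests on 5 animals, and genes of low count are the least certain.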
